A study of Homo sapiens with 4 samples.

Results

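The short and the long arm of chromosome 3 were compared in the 500 bp windows of the genome that the 5hmC-Seq table of FADU cells lists. A window of chromosome 3 was taken as short arm when it ended at or before base 90500000 and as long arm when it started at or after base 93500001, on either side of the centromere gap of hg19, a stretch of undetermined bases from 90504855 to 93504854. The table lists 956365 windows in all. Of these, 20225 lie on the short arm and 38473 on the long arm, 58698 together, and 1 more window of chromosome 3 lies on neither arm. The rule used the position of a window alone, so that how the listed windows fall between and within the arms was not fixed by it.

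FADU is a human epithelial line from the hypopharynx, grown out of a squamous carcinoma. It was sequenced under 4 conditions with 1 library each. These were normoxia with a scrambled control, normoxia with TET1 knockdown (TET1-si), hypoxia with a scrambled control (1% O2 for 18 h) and hypoxia with TET1 knockdown (1% O2 for 19 h). All 4 carry a knockdown construct, scrambled or against TET1, and the study speaks of them as FADU clones. The 4 value columns of the table have names that match no condition, so that no effect of hypoxia or of TET1 is given. The columns were not used to compare the arms either, and the text rests on where the windows lie. The sample titles name the assay hMeDIP-seq, the protocol in the labels describes precipitation with an antibody against 5-methylcytidine, and the methods of the study describe chemical labelling of 5hmC. A listed window is therefore called here a window of the 5hmC-Seq table and not a 5hmC peak.

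TET enzymes oxidise 5-methylcytosine (5mC) to 5-hydroxymethylcytosine (5hmC), and both modifications sit almost always on the cytosine of a CpG site. An enrichment assay for such a base collects fragments in proportion to the modified CpG sites they carry and to the amount of DNA from that place. CpG sites are rare in most of the genome and clustered in CpG islands at the starts of many genes, where they are usually unmethylated. In squamous carcinomas of the head and neck, loss of the short arm of chromosome 3 and gain of its long arm are among the most frequent chromosome changes. The short arm holds many tumour suppressor genes, and the distal long arm holds PIK3CA, SOX2 and TP63. The copy number of the FADU cells was not measured in these data, and its part in the values below was not tested.

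The sequences just upstream of 4 gene starts show what the windows contain, and were chosen to hold starts with a listed window on each arm and 1 without. VHL, on the short arm, encodes the ubiquitin ligase subunit that marks hydroxylated HIF-α for degradation. RASSF1, also on the short arm, encodes a RAS effector that is often silenced by promoter methylation in carcinomas. SOX2 and TP63, on the long arm, encode transcription factors of the squamous lineage. Each line gives the 200 bases before the start of the canonical transcript in GRCh37, read 5′ to 3′ on the strand of the gene, with each CpG site in capitals.
VHL, chr3:10183262-10183461, plus strand: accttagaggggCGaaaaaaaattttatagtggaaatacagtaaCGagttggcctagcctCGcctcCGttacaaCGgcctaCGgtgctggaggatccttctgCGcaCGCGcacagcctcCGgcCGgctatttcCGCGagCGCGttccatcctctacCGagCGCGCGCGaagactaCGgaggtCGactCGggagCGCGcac
RASSF1, chr3:50378268-50378467, minus strand: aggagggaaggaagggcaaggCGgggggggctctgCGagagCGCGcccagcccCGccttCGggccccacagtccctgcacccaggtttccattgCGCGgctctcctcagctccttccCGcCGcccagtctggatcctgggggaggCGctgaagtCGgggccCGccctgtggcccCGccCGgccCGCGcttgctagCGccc
SOX2, chr3:181429513-181429712, plus strand: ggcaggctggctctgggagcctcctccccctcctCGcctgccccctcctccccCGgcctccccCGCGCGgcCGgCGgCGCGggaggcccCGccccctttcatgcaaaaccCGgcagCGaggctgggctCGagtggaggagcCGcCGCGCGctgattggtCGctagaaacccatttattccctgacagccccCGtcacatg
TP63, chr3:189348978-189349177, plus strand: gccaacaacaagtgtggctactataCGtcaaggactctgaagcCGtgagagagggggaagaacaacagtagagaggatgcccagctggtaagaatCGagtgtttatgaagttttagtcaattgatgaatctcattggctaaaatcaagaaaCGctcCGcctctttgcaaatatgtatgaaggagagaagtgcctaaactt
The VHL sequence has 25 CpG sites and a GC content of 59.5%, and the window that holds it is in the table. The RASSF1 sequence has 18 CpG sites and a GC content of 74.5%, and its window is in the table as well. The SOX2 sequence, with 19 CpG sites and 72.5% GC, lies in a window that is not in the table. The TP63 sequence has 5 CpG sites and 43.5% GC, and both windows it overlaps are in the table. The start with the fewest CpG sites and those with 25 and 18 are thus listed, and that with 19 is not.

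The short arm was listed less densely than the long arm. Over all autosomes, 17.6% of the windows without an undetermined base are in the table. On the short arm it was 20225 of 180676 windows, 11.2% (95% Wilson interval 11.0 to 11.3%), or 224 windows per Mb. On the long arm it was 38471 of 208902 windows, 18.4% (18.3 to 18.6%), or 368 windows per Mb. The share of the long arm was 1.65 times that of the short arm (1.62 to 1.67), so that the short arm held 46.4% of the windows of the chromosome but 34.5% of those listed. The short arm lay below the autosomal share and the long arm slightly above it. The intervals cover counting error only and treat windows as independent, which neighbouring windows are not. There is 1 table and no replicate of it, so that no test was made.

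Base composition went the other way. Windows of the short arm had on average 4.30 CpG sites and a GC content of 40.3%, and those of the long arm 4.04 sites and 39.2%. A predicted share was therefore computed for each arm, as the share in the table of autosomal windows that matched its own in CpG number and GC content. It was 15.5% for the short arm and 13.9% for the long arm. The ratio of listed to predicted share was 0.720 on the short arm (0.711 to 0.730) and 1.33 on the long arm (1.32 to 1.34), which is 1.84 times as high (1.81 to 1.87). The chromosome as a whole had a ratio of 1.03. It was thus close to the autosomal level, with a low and a high arm on the same chromosome.

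The difference between the arms was seen in windows poor in CpG sites as well as in windows rich in them. As a ratio between the arms it was wider in the poor ones. In points of share it was narrowest in windows with no CpG site, where both shares were small. Of the windows with no CpG site, 1.01% were listed on the short arm and 2.75% on the long arm, a ratio of 2.72 between the arms. With 4 CpG sites the shares were 10.1% and 20.3%, a ratio of 2.00. With 7 to 9 sites they were 25.4% and 40.1%, and the ratio was 1.58. The short arm had its highest share, 36.3%, at 15 to 19 sites, where the long arm also had its highest, 49.0%. Above that the listing fell on both arms. In windows of 30 to 39 sites the arms had 32.6% (28.5 to 37.0%) and 39.5% (35.5 to 43.7%), and this is the class in which their intervals overlap. In windows of 40 or more sites, typical of the core of a CpG island, the shares were 24.4% (21.1 to 28.1%) and 32.0% (28.5 to 35.8%). The short arm was below all autosomes in every class of CpG number. The long arm was above them up to 14 sites and below them from 15 to 29 sites. With 30 to 39 sites and with 40 or more its intervals held the autosomal 42.0% and 29.4%.

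Listed windows were richer in CpG sites than the others on both arms. Those of the short arm had a mean of 7.50 sites and the rest 3.90, and on the long arm the means were 6.66 and 3.44. Listed windows of the long arm were thus poorer in CpG sites than those of the short arm, in the same direction as the windows in general.

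Reads were kept by the authors only where they matched 1 place in the genome, so that repeated sequence could lower the listing of an arm. In 20000 windows drawn from each arm, 5 sequences of 50 bases a window were searched in the genome. All 5 occurred once in 84.9% of the windows of the short arm and in 84.4% of those of the long arm. Within these unique windows the ratio of listed to predicted share was 0.785 on the short arm and 1.43 on the long arm. In windows with a repeated sequence it was 0.473 and 0.964. The long arm was 1.82 times as high as the short arm in unique windows, close to the 1.84 of all windows.

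Along each arm, the short arm was more uneven than the long arm on the log2 scale. In 5 Mb regions counted outwards from the centromere gap, the 18 regions of the short arm had ratios of listed to predicted share from 0.0614 to 1.29 with a median of 0.674. The 21 regions of the long arm had ratios from 0.813 to 2.04 with a median of 1.18. The SD of the log2 ratios was 1.32 on the short arm and 0.34 on the long arm. The log scale gives weight to the 3 regions of the short arm next to the gap, with ratios of 0.0839, 0.0614 and 0.102. The next lowest region of that arm had 0.355. The SD was not computed without these regions or on the plain scale. Of the 18 short arm regions, 11 lay below the lowest region of the long arm and 3 were above 1. Of the 21 long arm regions, 18 were above 1, all 21 were above the median of the short arm, and 9 were above its highest region. The arms therefore overlap in part, and 1 of the 18 short arm regions was above the median of the long arm. In 1 Mb regions, 19 of 90 on the short arm and 71 of 104 on the long arm had a ratio above 1.

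**Figure D1:**
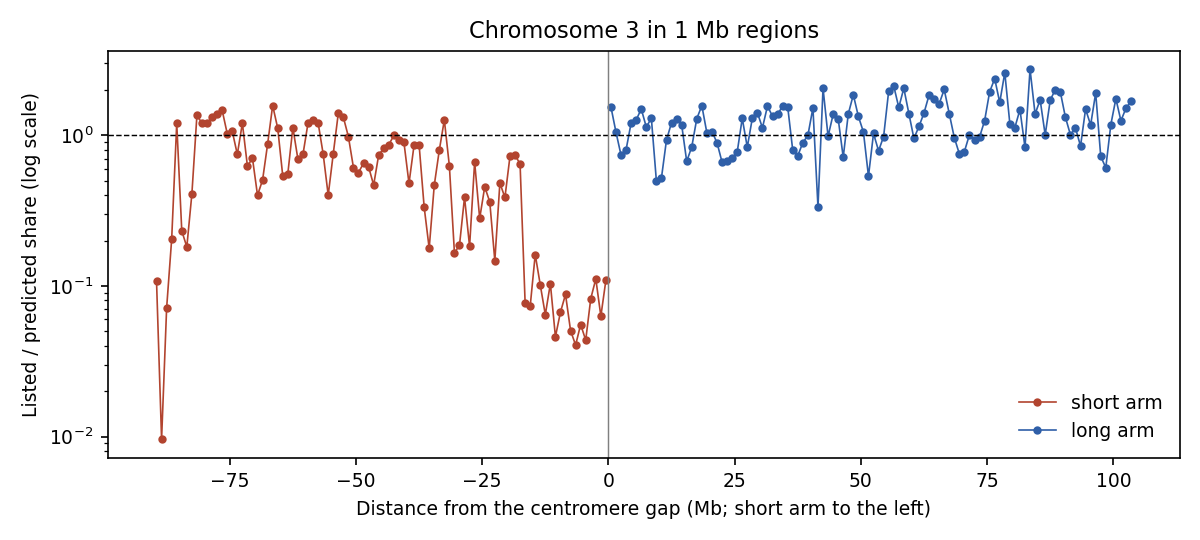
Ratio of listed to predicted share (vertical axis, log scale) in 1 Mb regions of chromosome 3, by distance from the centromere gap in Mb (horizontal axis, short arm to the left), with a dashed line at 1 where as many windows are in the table as predicted. The 17 regions of the short arm next to the gap lie between 0.0405 and 0.162, and no region of the long arm is under 0.334.

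The longest low part of the short arm is the stretch next to the centromere gap. The 17 consecutive 1 Mb regions from there outwards, chr3:73500001-90500000, all had a ratio under 0.2, from 0.0405 to 0.162 with a median of 0.0731. In this stretch 267 of 34000 windows were listed, 0.785% where 9.53% were predicted, a ratio of 0.0824. It holds 18.8% of the windows of the short arm and 1.32% of those listed. The edge was sharp at this scale. The outermost region of the stretch had 18 listed windows and a ratio of 0.0770, and the next region outwards, chr3:72500001-73500000, had 261 and a ratio of 0.645. Of all 1 Mb regions, 26 of 90 on the short arm and 0 of 104 on the long arm were under 0.2.

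The same distance on the other side of the gap did not look like this. In the 15 Mb of the short arm next to the gap, chr3:75500001-90500000, 230 of 30000 windows were listed, a ratio of 0.0838 (0.0737 to 0.0953). In the 15 Mb of the long arm next to the gap, chr3:93500001-108500000, it was 3274 of 29990 windows, a ratio of 1.11 (1.08 to 1.15). These stretches are alike in composition, with 3.15 and 3.10 CpG sites a window, GC contents of 35.6% and 36.7%, and 86.8% and 86.0% of the searched windows unique. They differ in genes, with 16 protein-coding genes on the short arm side and 60 on the long arm side. The low listing held for all CpG numbers, with ratios of 0.0745 for windows of 0 to 4 sites, 0.0980 for 5 to 9 sites and 0.0835 for 10 or more, the last from 34 of 1148 windows. On the long arm side the ratios were 1.23, 1.08 and 0.777. The 15 Mb next to the centromere gap, here counted from the edge of the undetermined bases, were also compared over the 34 autosomal arms on which such a stretch could be placed. The short arm of chromosome 3 had the lowest ratio, 0.0842, the next was the long arm of chromosome 4 with 0.379, and the median was 0.866. The length of 15 Mb was not planned beforehand and lies within the low stretch of this short arm, which favours a low rank for it.

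The stretch next to the gap accounts for part of the difference between the arms. Without these 15 Mb the short arm had a ratio of 0.789, and beyond the 30 Mb next to the gap it had 0.865. The long arm was 1.68 times as high as the short arm without the 15 Mb and 1.53 times without the 30 Mb, where it was 1.84 times as high with them. Both values were computed after the stretch had been seen.

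Several of the genes next to the gap are long and act in the nervous system. ROBO1 and ROBO2 encode receptors for the SLIT guidance cues, CADM2 a cell adhesion molecule, EPHA3 an ephrin receptor, GBE1 the glycogen branching enzyme and VGLL3 a cofactor of TEAD transcription factors. Of the 2341 windows in the transcript of ROBO1, 22 were listed, a ratio to the predicted number of 0.104. ROBO2 had 17 of 1220 windows (0.137), CADM2 10 of 2231 (0.0577) and EPHA3 3 of 749 (0.0483). GBE1 had 7 of 544 windows, a ratio of 0.146, and ZNF654, a zinc finger gene, had 0 of 171. The 10 genes of this stretch with at least 5 predicted windows ranged from 0 to 0.313 with a median of 0.142. On the long arm side the 38 such genes ranged from 0.217 to 2.42 with a median of 1.41. A promoter, taken as the 6 windows of the 3000 bp upstream of the start, held a listed window for 2 of the 16 short arm genes, GBE1 with 1 window and VGLL3 with 2. It did so for 43 of the 60 long arm genes and for 76.6% of all autosomal protein-coding genes.

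Elsewhere on the short arm the lowest 1 Mb region lies near the telomere. In chr3:1500001-2500000, where CNTN4, a neuronal adhesion gene, begins, 2 of 2000 windows were listed, a ratio of 0.00958. The region of 5 Mb around it, chr3:500001-5500000, had a ratio of 0.436. The highest 5 Mb region of the short arm was chr3:10500001-15500000, with 3545 listed windows, 35.5% of its windows, and a ratio of 1.29. It holds PPARG, XPC and WNT7A among 40 genes. The next were chr3:35500001-40500000 at 1.07 and chr3:30500001-35500000, with TGFBR2, at 1.05 (0.999 to 1.10).

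The long arm was highest in its outer part. Beyond 55 Mb from the gap, chr3:148500001-198022430, 20892 of 98912 windows were listed, 21.1%, a ratio of 1.49 (1.48 to 1.51). In the inner 55 Mb the ratio was 1.17 (1.16 to 1.19). The cut at 55 Mb was not planned beforehand, and it falls between 5 Mb regions with ratios of 0.885 and 1.81. The parts overlap, with inner 5 Mb regions up to 1.41 and outer ones down to 0.995. The highest 5 Mb region was chr3:168500001-173500000, with 2739 listed windows, 27.4%, and a ratio of 2.04. It holds MECOM, PRKCI, SKIL and ECT2 among 28 genes. The next were chr3:148500001-153500000, with SIAH2, at 1.81, and chr3:178500001-183500000, with PIK3CA, ACTL6A, FXR1, SOX2 and DCUN1D1, at 1.73. In 1 Mb regions the highest was chr3:176500001-177500000, with TBL1XR1, a subunit of a nuclear receptor corepressor complex, at 2.74. The lowest 5 Mb regions of the long arm were chr3:113500001-118500000, with the neuronal genes LSAMP and GAP43, at 0.813, chr3:143500001-148500000, with PLOD2 and ZIC1, at 0.885, and chr3:163500001-168500000 at 0.995. Its lowest 1 Mb region, chr3:134500001-135500000, with the ephrin receptor gene EPHB1, had a ratio of 0.334. The inner and the outer long arm thus differed less than the arms did.

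Listed windows stood in short runs on both arms. The short arm had 9505 runs of adjoining listed windows with a mean of 2.13 windows, and 45.6% of the runs were a lone window. The long arm had 17607 runs with a mean of 2.19 windows, and 44.8% were a lone window. The arms therefore differed in the number of runs and hardly in their length. Runs of 10 or more windows numbered 103 and 215. The longest run of the short arm had 49 windows, chr3:11590001-11614500, in ATG7 and VGLL4, with a mean of 12.2 CpG sites and 23.0 windows predicted. The longest of the long arm had 74 windows, chr3:126703001-126740000, at PLXNA1, with a mean of 12.6 sites and 45.1 windows predicted.

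Stretches without a listed window separated the arms more clearly. The longest on the short arm spanned 913.5 kb, chr3:2166501-3080000, within CNTN4, where 221 of its 1827 windows were predicted to be listed. The longest on the long arm spanned 208 kb, chr3:162462001-162670000, with no protein-coding gene and 28.2 windows predicted. The short arm had 93 such stretches of 100 kb or more and the long arm 3. They covered 21.3% of the short arm and 0.424% of the long arm. The low stretch next to the gap holds 18.8% of the windows of the short arm, and how many of the 93 lie in it was not counted. No count over the other autosomes was made. A window that is not in the table can still have had reads, since the name of the table gives a minimum of 20, and the rule by which windows were kept was not tested.

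By location in genes, the long arm was above the short arm in each class of window relative to the prediction, but not in the listed share of exons. In introns the ratio of listed to predicted share was 0.798 on the short arm and 1.49 on the long arm. In the 5000 bp upstream of genes it was 1.04 and 1.67, in exons 0.873 and 1.21, in 3′ untranslated regions 0.984 and 1.46 and in 5′ untranslated regions 0.593 and 1.15. In windows in none of these classes and not in the 1000 bp downstream of a gene it was 0.595 and 1.18. The listed share of exon windows was 31.7% (29.6 to 33.9%) on the short arm and 30.3% (28.3 to 32.4%) on the long arm. The gap in the exon ratio thus came from the predicted share, which was higher on the short arm. In 3′ untranslated regions the listed shares were 20.7% and 21.5%, with overlapping intervals. In the other classes the listed share was higher on the long arm. On both arms the windows upstream of genes were higher, relative to the prediction, than the windows away from genes. Of the listed windows, introns held 52.8% on the short arm and 46.8% on the long arm, and windows away from genes held 37.0% and 45.5%.

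Around gene starts the arms shared the shape of the listing and differed in its level, more so relative to the prediction than in the listed share. On the short arm, with 510 protein-coding genes, 45.3% of the windows 500 to 1000 bp upstream of the start were listed (34.5% predicted), 23.9% of those in the 500 bp downstream of the start (20.4 to 27.8%, 36.2% predicted) and 41.2% of those at 1000 to 1500 bp downstream. On the long arm, with 571 genes, the shares were 51.0% (27.5% predicted), 29.1% (25.5 to 32.9%, 32.7% predicted) and 45.0%. Both arms thus had a dip just downstream of the start between flanks that were more often listed. Relative to the prediction the dip reached 0.661 on the short arm and 0.890 on the long arm. The ratio 500 to 1000 bp upstream was 1.31 and 1.86. Without a prediction, as the listed share over that of all autosomal windows, the dip had 1.36 on the short arm and 1.65 on the long arm, and with the 5′ end of the gene as the start the long arm had 1.06.

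Most promoters of both arms held a listed window. The share over all autosomal genes was 76.6%. The short arm had 388 of 510 genes, 76.1% (72.2 to 79.6%), and on the long arm 462 of 571, 80.9% (77.5 to 83.9%). The intervals of the arms overlap and the short arm is near the autosomal share. A promoter with 3 or more listed windows was found for 44.4% of all autosomal genes, for 173 genes (33.9%) of the short arm and for 274 (48.0%) of the long arm. The window with the start itself was listed for 27.4% of all autosomal genes and for 131 genes (25.7%) and 178 genes (31.2%) of the arms, and it had a median of 40.5 CpG sites on the short arm and 35.0 on the long arm. The arms were alike in gene number per Mb, 5.65 and 5.47.

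Within transcripts the arms also differed, here by the ratio of listed to predicted windows and not by the share used for promoters. By such a ratio the windows in the 5000 bp upstream of genes differed as well, with 1.04 on the short arm and 1.67 on the long arm. Over both arms, 59.8% of the genes with at least 5 predicted windows had more listed windows than predicted. This share is made up of the 2 arms themselves, and that of all autosomal genes was not computed. The short arm had 177 of 401 such genes (44.1%), and the quartiles of the ratio were 0.568, 0.905 and 1.33. On the long arm it was 331 of 448 genes (73.9%), with quartiles of 0.967, 1.45 and 1.88. The lower quartile of the long arm thus lay above the median of the short arm. Transcripts with no listed window numbered 6 on the short arm and 1 on the long arm.

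Genes of the short arm known as tumour suppressors or growth regulators in carcinomas were spread over the range of their arm. Of 15 such genes, 13 had a listed window in the promoter, against 76.1% of all genes of the arm, and 38 of their 90 promoter windows were listed (42.2%, against 32.3% over the arm). Their transcripts had ratios from 0.104 to 2.58 with a median of 1.07, where the arm had 0.905, and 9 of the 15 were above 1, against 44.1% of the genes of the arm and 59.8% of those of the chromosome. Nothing particular to the list is read from these counts. The highest was TGFBR2, the type II receptor for TGF-β (chr3:30648093-30735634), with 69 of 175 windows listed where 26.7 were predicted. VHL had 14 of 24 windows listed (1.87). The semaphorins SEMA3B and SEMA3F, secreted guidance factors, had 13 of 17 (1.52) and 50 of 67 (1.51). RASSF1, close to them, had 10 of 23 (1.12). The retinoic acid receptor gene RARB had 74 of 339 windows (1.18). The long transcription factor gene FOXP1 (chr3:71003859-71632879) had 243 of 1258 windows, a ratio of 1.01, although it lies not far outside the low stretch next to the gap.

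Other genes of the same list were below the prediction. FHIT, a gene that spans a common fragile site (chr3:59733003-61237126), had 61 of 3005 windows listed, a ratio of 0.167, and none in its promoter. ROBO1 (chr3:78646389-79817148) had a ratio of 0.104 and none in its promoter. These are the genes of the list without a listed promoter window. BAP1, a nuclear deubiquitinase, had 4 of 18 windows (0.503), PBRM1, a chromatin remodelling subunit, 34 of 281 (0.668), and CTNNB1, which encodes β-catenin, 7 of 82 (0.748). SETD2, the histone H3 lysine 36 methyltransferase, had 45 of 295 (0.905). In sum the transcripts of the 15 genes had 695 listed windows, a ratio of 0.616, which is under the median because FHIT and ROBO1 are the longest.

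Genes of the long arm known to be gained or expressed in squamous carcinomas were mostly above the prediction, as were most genes of that arm. Of 16 such genes, 15 had a listed window in the promoter, against 80.9% of all genes of the arm, and 49 of their 96 promoter windows were listed (51.0%, against 40.4% over the arm). The 13 with at least 5 predicted windows had ratios from 0.703 to 3.35 with a median of 2.23, where the arm had 1.45, and 12 were above 1, against 73.9% of the genes of the arm. Many of them are neighbours in high 5 Mb regions of the arm. MECOM, PRKCI, SKIL and ECT2 lie in the region at 2.04, and PIK3CA, ACTL6A, FXR1 and DCUN1D1 in that at 1.73. Nothing particular to the list is read from these counts. PRKCI, the atypical protein kinase C iota (chr3:169940212-170023765), had 96 of 168 windows listed (3.35). ECT2, a guanine nucleotide exchange factor of cytokinesis, had 46 of 142 (3.31), FXR1, an RNA-binding protein gene, 61 of 140 (3.17), and SKIL, a repressor of SMAD signalling, 46 of 78 (3.10). DCUN1D1, a cullin neddylation gene, had 36 of 85 (2.80) and PIK3CA, the catalytic subunit of PI3-kinase alpha, 43 of 184 (2.32). EIF4G1, a translation initiation factor, had 37 of 41 windows (2.23). MECOM had 255 of 1160 (2.05), TP63 124 of 532 (2.03), the transferrin receptor gene TFRC 31 of 66 (1.94), ACTL6A 14 of 51 (1.83) and the checkpoint kinase gene ATR 39 of 259 (1.31).

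The exception was BCL6, a transcriptional repressor, with 11 of 49 windows listed (0.703) and none in its promoter. SOX2, CLDN1 and HES1 had under 5 predicted windows in the transcript. SOX2 had 1 of 5 windows and HES1, a Notch target, also 1 of 5, whereas CLDN1, a tight junction gene, had 13 of 33. The start windows of SOX2, PIK3CA and PRKCI were not listed, although 4, 1 and 4 of their 6 promoter windows were. TP63, whose start window has 10 CpG sites, was the gene of this list with a listed start window. On the short arm the start windows of VHL, RASSF1, RARB and SEMA3B were listed, with 49, 53, 20 and 16 sites.

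Genes of oxygen sensing, sterols and 5-methylcytosine, which the study's conditions touch, fall on both arms. On the short arm VHL had a ratio of 1.87, P4HTM, a transmembrane prolyl hydroxylase, 1.35, and PPARG, a lipid-activated nuclear receptor, 1.62, with 17 of 34 and 64 of 291 windows for the last 2. SCAP, the escort of the sterol regulated factor SREBP, had 38 of 125 windows (0.997). On the long arm SIAH2, a ubiquitin ligase for prolyl hydroxylases, had 27 of 44 windows (2.91), and PLOD2, a lysyl hydroxylase of collagen, 15 of 184 (0.831) with 5 of its 6 promoter windows listed. MBD4, a DNA glycosylase that binds methylated CpG sites, had 5 of 18 windows with under 5 predicted. All 7 genes had a listed window in the promoter, as had 76.6% of all autosomal genes, so that nothing about the list is read from it.

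Set beside the other autosomes, chromosome 3 was among the most unequal. Of the 17 autosomes with both arms sequenced, the ratio of listed to predicted share was higher on the long arm in 8. The long arm stood highest over the short arm on chromosome 8, with ratios of 1.72 and 0.574, then on chromosome 20 with 1.26 and 0.633. Chromosome 3, where the long arm was 1.84 times as high, was the third of the 17. The median of long over short arm was 0.927 and the lowest value was 0.550, on chromosome 18. Among the 39 arms, with ratios from 0.479 to 1.79 and a median of 0.964, the long arm of chromosome 3 was the 6th from the top and its short arm the 32nd.

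**Figure D2:**
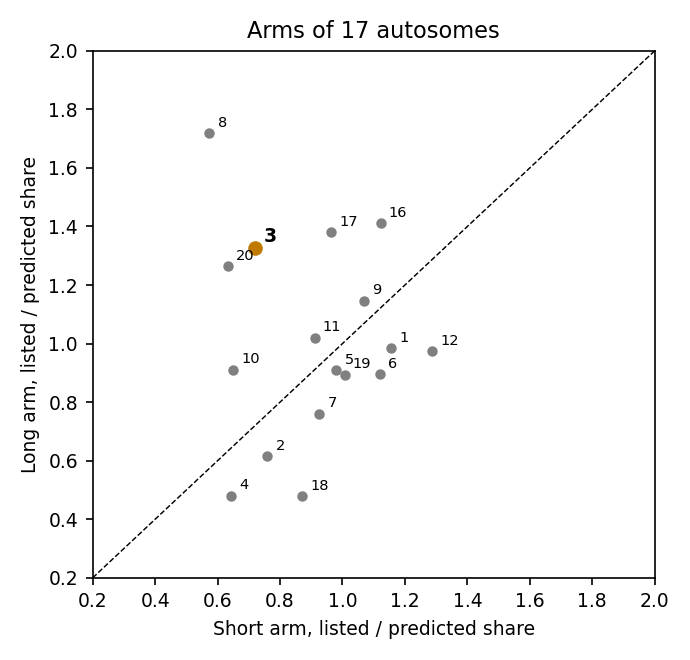
Ratio of listed to predicted share on the short arm (horizontal axis) and the long arm (vertical axis) of 17 autosomes, each point a chromosome with its number, and chromosome 3 marked in colour. Chromosome 3, at 0.720 and 1.33, lies above the dashed line of equal arms, farther from it than most and nearer than chromosome 8.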

How the data were processed

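5hmC-Seq libraries of FADU cells were made under 4 conditions, with 1 library each. Per the methods and the submitters' processing notes, the authors mapped 50 bp single-end reads to hg19 with Bowtie 0.12.7, kept reads that matched 1 place and 1 of each set of duplicates, and counted them with MEDIPS. The deposited table holds 500 bp windows, and its name gives a minimum of 20. Its 4 value columns match no label and were not used, so that the depth of each library is not given.

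Windows were placed on GRCh37, which has the same coordinates for these chromosomes. The background was the autosomal windows without an undetermined base. The predicted share came from autosomal windows of the same CpG number (40 or more as 1 class) and GC content (steps of 25 bases). Genes are the canonical protein-coding transcripts of GENCODE version 44 on GRCh37, and a window belongs where its midpoint lies. A transcript ratio needed 5 predicted windows. Intervals are 95% Wilson intervals. Scripts used numba 0.67.0, Matplotlib 3.10.9, SciPy 1.17.1, pandas 2.3.3, NumPy 2.4.6 and Python 3.11.15, and the ratios were tested on simulated listings.

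The genes counted and named are those of 3 lists, apart from a gene that is not reported here (short arm tumour suppressors, long arm genes of squamous carcinomas, and genes of oxygen sensing, sterols and 5-methylcytosine), with the genes of the stretch next to the gap and of the highest and lowest regions. The arms, members and lists were chosen with earlier results of these data known. Alternatives were other predictions, region sizes, promoter lengths and starts, windows of unique sequence, and windows left out at the ends, at gene starts and next to the gap.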

Additional observations from a re-analysis of the deposited data

How the results depend on the processing

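Of 39 alternatives, 3 turned the direction of a value and 13 moved it outside its 95% interval or, for region medians, SDs and counts, by over 1.5 times. The other 23 did neither. The long arm stayed above the short arm in all alternatives for the arms. The listed share of the long over the short arm, 1.65, was 1.44 without the 5 Mb next to the gap and the telomere, 1.71 in windows over 5000 bp from gene starts and 1.60 in windows of unique sequence. The ratio corrected for composition, 1.84, was 1.76 with CpG number alone, 1.65 with no prediction, 1.73 without the 5 Mb ends, 1.90 away from gene starts and between 1.74 and 2.05 with each 10 Mb region left out in turn. It was 1.68 and 1.53 without the 15 and 30 Mb of the short arm next to the gap, settings chosen after seeing the data. The SD of the log2 ratios over regions of the long arm, 0.34, was 0.55 in 1 Mb regions and 0.68 with no prediction. The ratio in the 500 bp downstream of gene starts turned from 0.661 to 1.36 on the short arm and from 0.890 to 1.65 on the long arm with no prediction, since CpG-rich windows are then set against all windows, and to 1.06 on the long arm with the 5′ end of the gene as the start.

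No analysis paired by condition was possible because the value columns match no condition, and there is 1 library of each. The arms were not compared within each value column, which would have needed no label. Whether the difference between the arms held in each of the 4 libraries was therefore not tested. The listing pools what the 4 libraries gave, and depth, copy number and the rule by which windows were kept cannot be told apart in it.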
